A study of Mus musculus with 4 samples.

Results

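The regions described here were the H3K27me2 peaks that lay within 1 kb of an annotated transcription start site in mouse zygotes. They were chosen as every listed peak whose deposited annotation places it in the promoter within 1 kb of a start. Of 56036 peaks in 4 lists, 5820 met this rule, and they named 3618 genes. Each list belongs to 1 parental genome of 1 genotype. H3K27me2, the dimethylated form of lysine 27 of histone H3, was profiled by ultra-low-input native ChIP-seq in pooled zygotes at pronuclear stage 5, without their polar bodies. C57BL/6J eggs were fertilized in vitro by PWK/PhJ sperm to obtain them, so that reads over a variant between the strains could be assigned to the maternal or the paternal genome. The mothers of both genotypes carried floxed Ezh2 alleles with loxP sites around exon 4. In the Ezh2m+/p+ group the mothers had no Cre, and in the Ezh2m-/p+ group they carried Gdf9-Cre, which is driven in growing oocytes, so that only the egg lacked the gene and the sperm brought an intact allele to both. Each genotype had 1 H3K27me2 library and 1 input library.

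H3K27me2 is deposited by Polycomb repressive complex 2 (PRC2), whose catalytic subunit is EZH2 or its relative EZH1, and the same complex adds the further methyl group that makes H3K27me3. H3K27me3 at CpG-rich promoters is a hallmark of silenced developmental genes, whereas H3K27me2 is known in other cells as a broad mark of regions that are not transcribed. In the egg, H3K27me3 also marks genes that are later silent on the maternal allele. The question put to these regions was which genes carried H3K27me2 at a start site on each parental genome, and whether the genes recurred when maternal EZH2 was absent.

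As each genotype had a single library, a difference between genotypes could not be set against replicate spread, and none was tested. Intervals given below are 95% Wilson intervals and cover the sampling of peaks or genes in these libraries only. Maternal and paternal reads of a genotype came from the same library. The lists hold no read counts, so the depth behind a single peak is unknown. For whole libraries, the study's summary gives fewer reads in Ezh2m-/p+ than in Ezh2m+/p+ zygotes, for both H3K27me2 and input. Genotypes were taken from the names of the lists. The study's summary of peak numbers pairs lists and genotypes in the same way, while its displays of annotation shares do not, so every direction between genotypes given below rests on those names. The fold of a peak is the ratio of H3K27me2 to input reads that the peak caller computed. Whether it was scaled to the reads of each parental genome is not given in the sources used here, so folds of different lists need not be on 1 scale. Every listed peak had a fold over 5.

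Start sites recurred in both paternal lists far more often than in both maternal lists. Of 32619 RefSeq promoter windows, each running from 250 bases before to 50 bases after a start, peaks overlapped 260 windows (0.797%) in the Ezh2m+/p+ maternal list and 1072 (3.29%) in the Ezh2m+/p+ paternal list. In the Ezh2m-/p+ lists they overlapped 426 maternal windows (1.31%) and 1523 paternal windows (4.67%). Both maternal lists overlapped 18 of these windows and both paternal lists 750. The paternal lists held more peaks (17863 and 22823, against 5744 and 9606), and shared windows were not recounted with lists of equal size. The 9 windows shown here are examples from those shared between lists, with each CpG dinucleotide in capitals. Coordinates are those of GRCm38 and the sequences are from RefSeq. Only 3 windows were overlapped in a maternal and in a paternal list, and in each case the 2 lists were of different genotypes:
Haspin, chr11:73138245-73138544, minus strand: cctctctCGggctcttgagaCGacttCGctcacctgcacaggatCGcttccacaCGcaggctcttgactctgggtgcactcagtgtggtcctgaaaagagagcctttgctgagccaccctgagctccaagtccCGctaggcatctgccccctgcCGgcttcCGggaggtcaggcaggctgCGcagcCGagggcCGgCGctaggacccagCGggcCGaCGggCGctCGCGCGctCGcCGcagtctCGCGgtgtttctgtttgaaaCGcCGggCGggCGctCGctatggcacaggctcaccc
Qrich2, chr11:116454298-116454597, minus strand: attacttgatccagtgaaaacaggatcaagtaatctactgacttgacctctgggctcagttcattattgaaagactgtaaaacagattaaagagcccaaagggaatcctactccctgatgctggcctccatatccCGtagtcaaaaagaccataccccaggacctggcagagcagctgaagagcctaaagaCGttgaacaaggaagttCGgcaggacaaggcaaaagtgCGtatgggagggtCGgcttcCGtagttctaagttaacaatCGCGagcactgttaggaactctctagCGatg
Mettl7a2, chr15:100352950-100353249, plus strand: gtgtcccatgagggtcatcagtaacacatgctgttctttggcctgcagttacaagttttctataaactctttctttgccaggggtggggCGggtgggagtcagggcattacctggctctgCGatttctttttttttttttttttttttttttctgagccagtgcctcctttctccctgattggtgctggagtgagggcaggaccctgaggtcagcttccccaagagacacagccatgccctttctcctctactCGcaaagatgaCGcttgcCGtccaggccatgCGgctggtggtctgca
Haspin encodes the kinase that phosphorylates histone H3 at threonine 3 in mitosis, and its window held 28 CpG dinucleotides, with a GC content of 67%. It was overlapped by an Ezh2m-/p+ maternal peak of fold 43.6 and an Ezh2m+/p+ paternal peak of fold 6.77. The Qrich2 window held 9 CpG dinucleotides and was overlapped by an Ezh2m+/p+ maternal peak of fold 6.20 and an Ezh2m-/p+ paternal peak of fold 8.87. The Mettl7a2 window, which RefSeq also gives for Methig1, held 6 and was overlapped by an Ezh2m-/p+ maternal peak of fold 33.7 and an Ezh2m+/p+ paternal peak of fold 36.1. The Mettl7a2 peaks met end to end without overlapping each other.

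The following windows were covered in both genotypes of the maternal genome, and were those in which the smaller of the 2 folds was largest:
Hspb1, chr5:135887669-135887968, plus strand: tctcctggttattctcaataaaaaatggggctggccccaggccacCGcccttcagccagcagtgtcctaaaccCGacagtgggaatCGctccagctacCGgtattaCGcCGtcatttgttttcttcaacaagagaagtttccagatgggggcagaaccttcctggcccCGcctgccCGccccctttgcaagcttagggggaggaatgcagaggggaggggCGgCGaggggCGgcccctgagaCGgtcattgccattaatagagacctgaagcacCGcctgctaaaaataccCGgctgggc
Tnfrsf13c, chr15:82224331-82224630, minus strand: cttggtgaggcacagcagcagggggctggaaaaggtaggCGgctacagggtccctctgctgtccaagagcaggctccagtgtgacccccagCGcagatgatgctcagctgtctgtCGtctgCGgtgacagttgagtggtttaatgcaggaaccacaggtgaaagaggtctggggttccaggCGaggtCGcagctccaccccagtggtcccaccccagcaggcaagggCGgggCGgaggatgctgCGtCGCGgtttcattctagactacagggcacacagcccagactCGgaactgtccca
Qrfpr, chr3:36222226-36222525, minus strand: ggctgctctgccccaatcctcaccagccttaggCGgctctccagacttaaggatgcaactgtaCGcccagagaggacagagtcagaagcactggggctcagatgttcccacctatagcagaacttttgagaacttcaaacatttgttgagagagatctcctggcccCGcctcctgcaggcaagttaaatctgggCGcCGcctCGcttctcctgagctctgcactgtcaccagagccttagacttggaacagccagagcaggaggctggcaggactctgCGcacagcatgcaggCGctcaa
Hspb1 encodes a small heat shock protein, Tnfrsf13c the B-cell receptor for the cytokine BAFF, and Qrfpr a receptor for the neuropeptide QRFP. The Hspb1 peaks had the same start and end in both genotypes (chr5:135887601-135889599), with folds of 41.5 for Ezh2m+/p+ and 41.3 for Ezh2m-/p+ zygotes. The Tnfrsf13c peaks had folds of 7.54 and 52.8, and the Qrfpr peaks had folds of 7.37 and 53.5. The same choice in the paternal genome gave these windows:
Olfr550, chr7:102578219-102578518, plus strand: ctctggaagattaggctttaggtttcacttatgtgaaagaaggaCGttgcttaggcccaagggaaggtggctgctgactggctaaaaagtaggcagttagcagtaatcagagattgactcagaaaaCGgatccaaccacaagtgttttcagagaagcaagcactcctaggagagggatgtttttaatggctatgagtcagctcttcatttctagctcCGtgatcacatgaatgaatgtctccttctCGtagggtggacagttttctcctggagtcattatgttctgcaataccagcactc
Rslcan18, chr13:67113979-67114278, minus strand: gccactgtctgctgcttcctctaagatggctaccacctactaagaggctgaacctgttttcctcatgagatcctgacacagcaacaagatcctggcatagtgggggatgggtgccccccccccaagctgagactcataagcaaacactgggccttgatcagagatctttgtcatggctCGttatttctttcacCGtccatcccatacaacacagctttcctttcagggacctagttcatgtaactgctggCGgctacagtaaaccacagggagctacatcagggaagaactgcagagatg
Gdf1, chr8:70329515-70329814, plus strand: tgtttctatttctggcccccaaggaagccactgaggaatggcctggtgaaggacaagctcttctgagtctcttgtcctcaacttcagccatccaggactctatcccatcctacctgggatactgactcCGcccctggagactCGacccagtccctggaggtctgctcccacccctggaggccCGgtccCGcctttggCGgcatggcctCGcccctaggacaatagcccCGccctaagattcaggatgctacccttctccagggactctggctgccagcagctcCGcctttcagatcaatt
Olfr550 encodes an olfactory receptor, Rslcan18 a KRAB zinc finger protein and Gdf1 a ligand of the TGF-beta family. The paternal folds were 144 for Ezh2m+/p+ and 158 for Ezh2m-/p+ zygotes for Olfr550, 132 and 126 for Rslcan18, and 138 and 118 for Gdf1. The 3 maternal windows held 8 to 14 CpG dinucleotides and the 3 paternal windows held 3 to 8.

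Promoter peaks were a similar share of each list. The Ezh2m+/p+ maternal list had 536 among 5744 peaks, or 9.33% (8.61 to 10.1%), and the Ezh2m-/p+ maternal list had 906 among 9606, or 9.43% (8.86 to 10.0%). The paternal lists had 1884 among 17863 in Ezh2m+/p+, or 10.5% (10.1 to 11.0%), and 2494 among 22823 in Ezh2m-/p+, or 10.9% (10.5 to 11.3%). The intervals of the 2 genotypes overlapped in both parental genomes. Sequence within 1 kb of a start makes up 6.13% of the known bases of chromosomes 1 to 19 and X. Maternal peaks covered 0.772% of that sequence in Ezh2m+/p+ zygotes, against 0.708% of the genome. In Ezh2m-/p+ zygotes they covered 1.12% against 0.939%. Paternal peaks covered 2.42% of promoter sequence in Ezh2m+/p+ zygotes, against 1.67% of the genome, and 3.67% against 2.61% in Ezh2m-/p+ zygotes. Coverage near starts was thus 1.09 and 1.19 times that of the genome in the maternal lists and 1.45 and 1.41 times in the paternal lists.

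These peaks named 524 genes in the Ezh2m+/p+ maternal list, 1463 in the Ezh2m+/p+ paternal list, 847 in the Ezh2m-/p+ maternal list and 1984 in the Ezh2m-/p+ paternal list. Among 21123 annotated protein-coding genes, that left 485 with a promoter peak (2.30%) in the Ezh2m+/p+ maternal list and 1325 (6.27%) in the Ezh2m+/p+ paternal list. The Ezh2m-/p+ lists reached 760 coding genes (3.60%) on the maternal and 1781 (8.43%) on the paternal genome. Both genomes therefore had more genes with a promoter peak in Ezh2m-/p+ zygotes, in lists that were also longer. Cut to the 5744 peaks of largest fold, the lists named 524 and 481 genes on the maternal genome and 465 and 412 on the paternal genome, in Ezh2m+/p+ and Ezh2m-/p+ zygotes respectively, so the order of the genotypes reversed.

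Most promoter peaks lay across the start itself. The start was covered by 360 of 536 Ezh2m+/p+ maternal peaks (67.2%, 63.1 to 71.0%) and by 580 of 906 Ezh2m-/p+ maternal peaks (64.0%, 60.8 to 67.1%). On the paternal genome the counts were 1173 of 1884 (62.3%, 60.0 to 64.4%) and 1651 of 2494 (66.2%, 64.3 to 68.0%). The other peaks were split about evenly, with 86 upstream and 90 downstream of the start in the Ezh2m+/p+ maternal list and 386 and 457 in the Ezh2m-/p+ paternal list. Peak centres scattered around the start with medians between -5.00 and 169 bp. At the edge of the rule, an Ezh2m+/p+ maternal peak of fold 32.2 was listed 997 bp upstream of Ptprr, and one of fold 5.36 lay just outside it, 1005 bp upstream of Il6ra. Also in these zygotes, a paternal peak of fold 36.1 lay 1000 bp downstream of a D5Ertd605e start and one of fold 72.2 lay 1004 bp upstream of a Cep350 start. In Ezh2m-/p+ zygotes the pairs were Mpzl2 (1000 bp, fold 42.1) and Igf2r (1001 bp, fold 22.2) on the maternal genome, and Dmkn (1000 bp, fold 15.8) and Sec24d (1003 bp, fold 5.25) on the paternal genome.

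Folds near starts were not higher than elsewhere. The median fold of promoter peaks was 6.87 in the Ezh2m+/p+ maternal list, against 7.37 for the other peaks of that list, and 23.7 in the Ezh2m-/p+ maternal list, against 23.7. On the paternal genome it was 24.1 against 36.1 in Ezh2m+/p+ zygotes and 13.3 against 16.7 in Ezh2m-/p+ zygotes. The Ezh2m+/p+ maternal values fell into separate ranges, with 352 promoter peaks of fold 5 to 10, 22 of fold 10 to 20, 69 of fold 20 to 40 and 88 of fold 40 to 80. Folds took a limited set of values. Taken to 3 decimals, the 1884 Ezh2m+/p+ paternal promoter peaks had 271 distinct folds, and 199 had the same fold of 36.1. In that list 5 values (7.52, 9.03, 36.1, 48.1 and 60.2) made up 36.2% of the peaks, and the 5 commonest values made up 17.8 to 29.1% in the other lists. Peaks ranked by fold are therefore often tied. The number of reads behind a fold is not given, so a large fold need not rest on many reads. The median length of promoter peaks was 2999 bp in the Ezh2m+/p+ maternal and 2199 bp in the Ezh2m-/p+ maternal list, equal to that of the other peaks in each. Paternal promoter peaks had a median of 1999 bp for Ezh2m+/p+ and 2399 bp for Ezh2m-/p+ zygotes, against 1799 and 1999 bp for the other peaks.

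Many of the start sites were not the first start of their gene. The annotation names a transcript for each peak, and its start lay within 1 kb of the most upstream start of the gene for 233 of 536 Ezh2m+/p+ maternal peaks (43.5%, 39.3 to 47.7%) and 416 of 905 Ezh2m-/p+ maternal peaks (46.0%, 42.7 to 49.2%). The paternal numbers were 951 of 1884 (50.5%, 48.2 to 52.7%) and 1304 of 2492 (52.3%, 50.4 to 54.3%). Of all 139486 annotated transcripts, 69.4% start there. That background counts every transcript, also those that share a start, whereas each peak names 1. Named starts more than 10 kb inside the gene made up 44.6% and 38.3% of maternal and 33.8% and 31.9% of paternal promoter peaks, in Ezh2m+/p+ and Ezh2m-/p+ zygotes respectively, against 18.6% of all transcripts. Protein-coding transcripts were named for 261 Ezh2m+/p+ maternal peaks (48.7%), and transcripts with a retained intron for 116 (21.6%). In the Ezh2m-/p+ paternal list these were 1447 (58.1%) and 419 (16.8%). A peak counted here as a promoter peak can thus lie at an internal, alternative start.

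**Figure D1:**
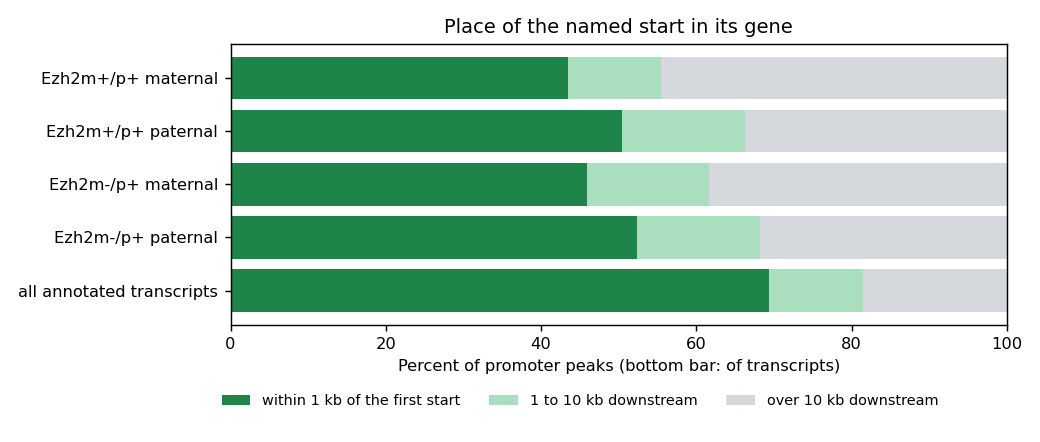
The bars give, for the promoter peaks of each list, the percent whose named transcript starts within 1 kb of the most upstream start of its gene, 1 to 10 kb downstream of it, or over 10 kb downstream. The lowest bar gives the same for all annotated transcripts, of which 69.4% start within 1 kb of the first start against 43.5 to 52.3% for the lists.

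Genes with many starts were more often named. Of 4312 coding genes with 1 annotated start, 0.812% had an Ezh2m+/p+ maternal promoter peak, and of 1851 genes with 10 or more starts 5.67% had one. On the Ezh2m-/p+ paternal genome the values were 4.78% and 14.3%. Coding genes with a promoter peak had a median of 5 or 6 starts, against 3 for all coding genes, and a median length of 24.9 to 36 kb, against 17.7 kb. A gene with more starts offers more places for a promoter peak under the rule. The part of the number of starts in the gene class values below was not tested.

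Recurrence between the genotypes was lower on the maternal than on the paternal genome, and on both it was above the share of all coding genes that a list named. On the maternal genome 79 genes had a promoter peak in both genotypes, which was 15.1% (12.3 to 18.4%) of the Ezh2m+/p+ genes and 9.33% (7.55 to 11.5%) of the Ezh2m-/p+ genes. On the paternal genome 1028 genes did, which was 70.3% (67.9 to 72.6%) of the Ezh2m+/p+ genes and 51.8% (49.6 to 54.0%) of the Ezh2m-/p+ genes. For comparison, the Ezh2m-/p+ lists named 3.60% of all coding genes on the maternal and 8.43% on the paternal genome. The Ezh2m+/p+ lists named 2.30% and 6.27%. The peaks behind the recurrent genes overlapped each other for 37 of the 79 maternal genes and for 962 of the 1028 paternal genes. Counted as intervals, 46 of 536 Ezh2m+/p+ maternal promoter peaks had an overlapping peak on the maternal genome of Ezh2m-/p+ zygotes (8.58%, 6.50 to 11.3%), against 9.56% of the other maternal peaks. On the paternal genome 1379 of 1884 did (73.2%, 71.1 to 75.1%), against 65.3% (64.5 to 66.0%) of the other paternal peaks. Ezh2m+/p+ paternal promoter peaks with a partner had a median length of 2599 bp, against 1599 bp without one, and a median fold of 18.7 against 36.1. In the Ezh2m-/p+ paternal list the lengths were 3799 and 1599 bp and the folds 13.1 and 13.8. The paternal value was smaller without the weaker peaks. With folds over 10 the shared genes were 50.9% of the Ezh2m+/p+ paternal list, and with lists of equal size 17.6%, against 9.39% and 8.02% on the maternal genome.

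**Figure D2:**
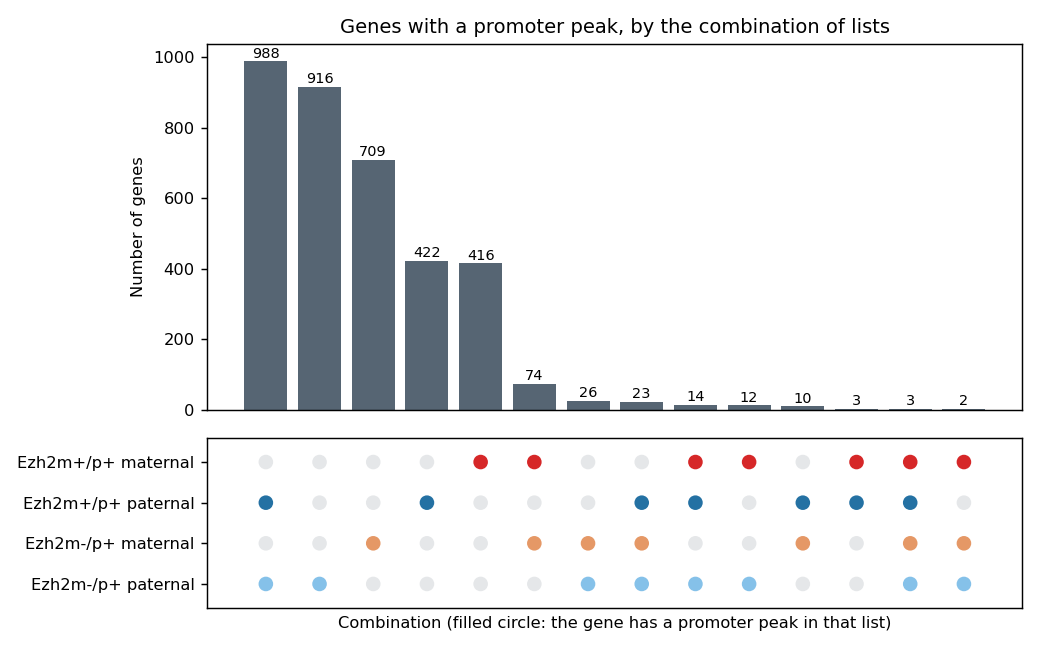
Bars give the number of genes with a promoter peak in each combination of the 4 lists, and filled circles below each bar mark the lists of that combination. The largest combination is the pair of paternal lists with 988 genes, while the pair of maternal lists holds 74.

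Sharing of genes between the parental genomes was below the share of coding genes that the paternal list named. It was nearer to the share of all annotated genes. In Ezh2m+/p+ zygotes 20 genes had a promoter peak on both genomes, which was 3.82% (2.48 to 5.82%) of the maternal and 1.37% of the paternal genes. The Ezh2m+/p+ paternal list named 3.82% of all annotated and 6.27% of coding genes. In none of these 20 genes did the maternal and the paternal promoter peaks overlap, and no Ezh2m+/p+ maternal promoter peak overlapped any Ezh2m+/p+ paternal peak, as was the case for all but 0.461% (0.310 to 0.685%) of the other maternal peaks. In Ezh2m-/p+ zygotes 54 genes were shared, or 6.38% (4.92 to 8.23%) of the maternal and 2.72% of the paternal genes, with overlapping peaks in 5. The Ezh2m-/p+ paternal list named 5.18% of all annotated and 8.43% of coding genes. Over the 4 lists, 2463 of the 3618 genes (68.1%) had a promoter peak in 1 list, 1113 (30.8%) in 2 lists, 39 in 3 lists and 3 in all 4.

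The genes found in all 4 lists were Vangl1, Arap1 and Arhgap26. Arap1 and Arhgap26 ranked below the 12 genes fixed by rule and were named after their values were seen. Vangl1, a membrane protein of planar cell polarity, had peaks of fold 46.9 on the Ezh2m+/p+ maternal, 12 on the Ezh2m+/p+ paternal, 19.9 on the Ezh2m-/p+ maternal and 17.7 on the Ezh2m-/p+ paternal genome. The maternal peaks lay at a start 6.79 kb inside the gene and the paternal peaks within 1 kb of its first start, so each genome was marked at a different start. Arap1, which encodes a GTPase-activating protein, had folds of 36.2, 96.3, 6.31 and 110 in the same order. Arhgap26, another GTPase-activating protein, had 6.53, 6.52, 29.1 and 9.36.

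Genes in 3 lists included regulators of chromatin and transcription. Smarca2, the ATPase BRM of SWI/SNF chromatin remodelling complexes, had folds of 37.5 on the Ezh2m+/p+ maternal, 27.5 on the Ezh2m-/p+ maternal and 63.0 on the Ezh2m-/p+ paternal genome, at 3 different starts between 76.0 and 117 kb inside the gene. Foxp4, a forkhead repressor, had a maternal peak of fold 41.5 in Ezh2m+/p+ zygotes only and paternal peaks of fold 84.3 and 23.6. Stat4, a transcription factor of cytokine signalling, had paternal peaks of fold 132 for Ezh2m+/p+ and 14.8 for Ezh2m-/p+ zygotes and an Ezh2m-/p+ maternal peak of fold 31.4. Grb10, an imprinted gene whose product dampens insulin signalling, had paternal peaks of fold 144 and 17.1 at the same start and an Ezh2m-/p+ maternal peak of fold 24.5 at another. Tbc1d14, a regulator of autophagy, had paternal folds of 84.3 and 27.6 and the highest Ezh2m-/p+ maternal fold of the 3-list genes named here (60.4). Paired paternal peaks with an Ezh2m-/p+ maternal peak were also found at Git2, Hpn, Myl3 and Myo7a, with maternal folds of 19.9 to 36.7. Myl3 and Myo7a encode a myosin light chain and an unconventional myosin. Kifc2, a kinesin gene, and Trim29 paired paternal peaks with an Ezh2m+/p+ maternal peak, of fold 33.5 and 41.5.

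On the maternal genome, the recurrent genes whose smaller fold was largest were, besides Hspb1, Efcab6 (55 for Ezh2m+/p+ and 55.8 for Ezh2m-/p+ zygotes), Bcas3 (48.3 and 50.5), Rfc2 (37.5 and 35.2) and Cyp2d34 (37.5 and 35.2). In none of these 4 genes did the peaks of the 2 genotypes overlap. Rfc2 encodes a subunit of the clamp loader of DNA replication, and Cyp2d34 a cytochrome P450. Hspb1 was marked at its first start in both genotypes, whereas the Efcab6 and Bcas3 peaks were at starts over 100 kb inside the genes. The paternal genes chosen in the same way were Gm12171 (211 and 173), Rasal2 (199 and 481), Pik3c2g (181 and 221), Usp21 (162 and 173) and Slc4a8 (205 and 150). The peaks of largest fold in the 2 genotypes overlapped at Gm12171 and Usp21, and were different intervals at Rasal2, Pik3c2g and Slc4a8. Rasal2 encodes a GTPase-activating protein for Ras, Pik3c2g a class II phosphoinositide 3-kinase, Usp21 a deubiquitinase and Slc4a8 a sodium-driven bicarbonate exchanger. Pik3c2g carried 5 and 4 promoter peaks and Rasal2 5 and 6, in the same order.

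The largest folds were found at different genes in each list. In the Ezh2m+/p+ maternal list they were at Ccdc162 (99.2), Parp11 (91.1), Phf21a (85.8), Celf2 (84.4) and Tmem63a (80.4). Phf21a belongs to a histone demethylase complex with LSD1, and Celf2 is a regulator of splicing. Of these 5, Ccdc162 (26.8) and Phf21a (5.55) were also in the Ezh2m-/p+ maternal list. There the largest folds were at Zfyve21 (116), Abhd6 (94.8), Mir192 (79.5), Slc39a14 (77.2) and Lipt1 (75), and no other list had a promoter peak at any of these 5. Abhd6 encodes a lipase for the endocannabinoid 2-arachidonoylglycerol, Slc39a14 a zinc and manganese importer and Lipt1 a lipoyltransferase of mitochondria.

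In the Ezh2m+/p+ paternal list the largest folds were at Styk1 (373), 4930402H24Rik (331), Peli2 (325), Gm14057 (301) and Mybpc3 (295). Mybpc3 encodes cardiac myosin-binding protein C and Peli2 a ubiquitin ligase of Toll-like receptor signalling. All 5 had a promoter peak in the Ezh2m-/p+ paternal list too, at folds of 11.8, 104, 6.90, 38.4 and 19.1. In the Ezh2m-/p+ paternal list the largest were at Rasal2 (481), 4833418N02Rik (394), Apool (378), Trp73 (355) and Fam171b (315). Trp73 encodes the p53 relative p73 and Apool a protein of mitochondrial cristae junctions on chromosome X. In the Ezh2m+/p+ paternal list 4833418N02Rik had a fold of 6.02, Trp73 9.53 and Fam171b 114, and Apool had no promoter peak. These genes were picked for the largest fold in 1 list, so a lower fold in the other list follows in part from the choice.

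Several promoter peaks of 1 gene were frequent on the paternal genome. In the Ezh2m+/p+ paternal list 280 genes and in the Ezh2m-/p+ paternal list 351 genes had more than 1, against 11 and 51 in the maternal lists. 4930402H24Rik had 8 for Ezh2m+/p+ and 7 for Ezh2m-/p+ zygotes. Ank2, which encodes the membrane adaptor ankyrin-B, had 7 in each. Itga6, which encodes an integrin subunit, had 4 and 7. Rpgrip1, a protein of the photoreceptor cilium, had 7 in Ezh2m+/p+ zygotes and 1 peak of 14399 bp in Ezh2m-/p+ zygotes. The most on the maternal genome were 4 at Clasp1, a microtubule-associated protein, in Ezh2m-/p+ zygotes and 3 at Phf21a in Ezh2m+/p+ zygotes. Long peaks were also mainly paternal, with 120 promoter peaks over 10000 bp for Ezh2m+/p+ and 251 for Ezh2m-/p+ zygotes, against 3 and 6 on the maternal genome. The longest was a peak of 101999 bp at Pla2g2c, a secreted phospholipase gene, in the Ezh2m-/p+ paternal list, where the Ezh2m+/p+ paternal list had one of 21799 bp.

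Gene classes were set beside the share of all coding genes in the same list, as a description without a test. That share was 2.30% in the Ezh2m+/p+ maternal, 6.27% in the Ezh2m+/p+ paternal, 3.60% in the Ezh2m-/p+ maternal and 8.43% in the Ezh2m-/p+ paternal list. In the smaller classes a single gene moves the share by over 1 percentage point. Over any list, the share was 15.4%. Of 26 classes with a marked gene, 22 had a count that moved by over 1.5 times with lists of equal size, 22 with peaks over 2000 bp and 8 with peaks that cover the start. Among receptors and adhesion molecules, collagens and integrins had promoter peaks at 6 of 75 genes (8.0%) in the Ezh2m+/p+ maternal list, 9 (12%) in the Ezh2m+/p+ paternal list, 4 (5.33%) in the Ezh2m-/p+ maternal list and 10 (13.3%) in the Ezh2m-/p+ paternal list, above the share of coding genes in all 4. The class had a median of 4 starts per gene, against 3 for coding genes. In both paternal lists 7 of the members were marked, and in both maternal lists 0. Itga5, Itga10, Itgad, Itgal, Itgb3 and Itgb6 made up the Ezh2m+/p+ maternal 6, which were named after their values were seen. Itgb4 (90.3 for Ezh2m+/p+ and 6.24 for Ezh2m-/p+ zygotes), Col11a2 (72.2 and 13.2) and Col20a1 (84.3 and 7.88) were paternal. Itga6 and Itga9 were also in both paternal lists. The 4 Ezh2m-/p+ maternal members were the collagens Col17a1, Col22a1, Col26a1 and Col9a2, of which Col9a2 (19.9) also had an Ezh2m+/p+ paternal peak (6.39). Col26a1 had a fold of 25.2 on the maternal and 63.0 on the paternal genome of Ezh2m-/p+ zygotes.

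Potassium, sodium and calcium channels had promoter peaks at 17 of 138 genes (12.3%) in the Ezh2m+/p+ paternal and 14 (10.1%) in the Ezh2m-/p+ paternal list, and at 7 (5.07%) and 4 (2.90%) in the maternal lists. The share was above that of coding genes in the Ezh2m+/p+ lists, near it in the Ezh2m-/p+ paternal list and below it in the Ezh2m-/p+ maternal list. Cacna1a, the pore-forming subunit of P/Q-type calcium channels, had paternal folds of 48.1 for Ezh2m+/p+ and 94.6 for Ezh2m-/p+ zygotes. Cacna1i, a T-type channel, had 96.3 and 8.87, and Kcne3, an accessory subunit of potassium channels, had 96.3 and 9.19. Cacna1d was marked on the paternal genome of Ezh2m+/p+ (72.2) and the maternal genome of Ezh2m-/p+ zygotes (26.8). G protein-coupled receptors named Gpr or Adgr had peaks at 9 and 12 of 101 genes on the paternal genome, in Ezh2m+/p+ and Ezh2m-/p+ zygotes, and at 3 in each maternal list. Adgrg1 had folds of 13.5 and 181 and Adgrb3 had 84.3 and 78.8.

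Transcription factors of development, the best-known targets of Polycomb silencing, had a median of 2 starts per gene, against 3 for coding genes, and shares below or near those of coding genes in 3 lists. In the Ezh2m-/p+ maternal list their shares were above the 3.60% of coding genes, on 7 and 6 genes. Homeobox factors had a peak at 2 of 158 genes (1.27%) in the Ezh2m+/p+ maternal, 7 (4.43%) in the Ezh2m+/p+ paternal, 7 (4.43%) in the Ezh2m-/p+ maternal and 12 (7.59%) in the Ezh2m-/p+ paternal list. Pitx3 was the only homeobox gene in both maternal lists (53.6 and 6.21). Meis3 (9.03 and 236), Otx2 (96.3 and 5.25) and Pou6f1 (78.2 and 45.3) were in both paternal lists, with the peak of largest fold at the first start of the gene. Sox, forkhead, T-box and Gata factors had peaks at 2, 3, 6 and 6 of 94 genes in the same order (2.13%, 3.19%, 6.38% and 6.38%). Foxa1, a pioneer factor of endoderm, had paternal folds of 12 and 8.87. Tbx15 was marked in Ezh2m-/p+ zygotes on both genomes (26.0 on the maternal and 110 on the paternal). Wnt, Fgf and Bmp ligands and receptors had peaks at 7 of 72 genes (9.72%) in each paternal list and at 2 and 3 in the maternal lists. Wnt4 (126 and 7.88), Bmp4 (72.2 and 8.54), Bmp7 (78.2 and 6.57) and Fzd8 (72.2 and 11.8) were in both paternal lists, each with a fold below 12 in Ezh2m-/p+ zygotes. Members of each class were named in part for their largest fold, so a lower fold in the other list follows in part from the choice. The folds of the lists also need not be on 1 scale.

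Chemosensory receptor genes were rarely marked on the maternal genome. Of 1109 olfactory receptor genes, 4 (0.361%) had a promoter peak in the Ezh2m+/p+ maternal and 5 (0.451%) in the Ezh2m-/p+ maternal list, against 41 (3.70%) and 61 (5.50%) in the paternal lists. All 4 shares were below those of all coding genes, and the class had a median of 2 starts per gene. Olfr550, Olfr1018 (72.2 and 284), Olfr738 (48.1 and 142) and Olfr749 (48.1 and 126) were in both paternal lists. Of 352 vomeronasal receptor genes, 4 had a peak, all in the Ezh2m-/p+ paternal list. Reads from near-identical genes are hard to place, so the values of both families are uncertain. Zinc finger genes, another large family of repeated copies, were at 1.49% and 1.70% on the maternal genome and at 5.96% and 10.2% on the paternal genome, of 470 genes.

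No ribosomal protein or histone gene had a maternal promoter peak, in classes where the maternal shares of coding genes would give only a few. Cytoplasmic ribosomal proteins had 3 of 84 genes in each paternal list and 0 in the maternal lists, and no gene was in both paternal lists. Mitochondrial ribosomal proteins had 4 and 9 of 78 genes on the paternal genome and 0 on the maternal genome. Mrpl20, Mrpl34 and Mrpl52 were in both paternal lists. Core and linker histones had 1 and 3 of 101 genes on the paternal genome and 0 on the maternal genome. Of 51 proteasome genes, the Ezh2m+/p+ maternal list had Psmb8 (40.2), Psmb10 (30.8) and Psma8 (5.19), and the Ezh2m-/p+ maternal list had none. Psmb8 and Psmb10 encode catalytic subunits of the immunoproteasome, and Psmb9, the third of these, had paternal folds of 5.27 and 33.5.

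A few oocyte genes and no genes of zygotic genome activation were marked. Of 32 oocyte and maternal-effect genes, 3 had a promoter peak in the Ezh2m+/p+ paternal list, 5 in the Ezh2m-/p+ paternal list, 0 in the Ezh2m+/p+ maternal list and 1 in the Ezh2m-/p+ maternal list. Zp2, which encodes a zona pellucida glycoprotein, had paternal folds of 289 for Ezh2m+/p+ and 142 for Ezh2m-/p+ zygotes. Npm2, a histone chaperone of the egg, had 120 and 8.87. Ddx4, a germline RNA helicase, was marked in Ezh2m-/p+ zygotes on the maternal (25.2) and the paternal genome (19.7). Of 29 genes known for zygotic genome activation, no list had any.

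Among regulators of chromatin, 6 of 35 Polycomb subunit genes (17.1%) had a promoter peak in any list, near the 15.4% of coding genes, and 1 did with peaks that cover the start. Only Kdm2b, which recruits Polycomb complexes to CpG-rich DNA, had one in 2 lists (36.1 in Ezh2m+/p+ and 13.8 in Ezh2m-/p+ paternal). Of the PRC1 genes, Pcgf5 (7.54) and Phc1 (5.03) were in the Ezh2m+/p+ maternal list and Pcgf1 (36.1) in the Ezh2m+/p+ paternal list. Scmh1 (5.91) was in the Ezh2m-/p+ paternal list. Among 34 histone lysine methylation enzymes, Kdm1a, the demethylase LSD1, had paternal folds of 48.1 and 158, Kmt2b had 48.1 and 11.8, and Dot1l was marked on the Ezh2m-/p+ maternal genome (21.4). Of 17 DNA methylation factors 3 had a promoter peak in any list, all maternal, Dnmt3b in Ezh2m+/p+ zygotes (40.2) and Dnmt1 (42.8) and Dnmt3a (6.21) in Ezh2m-/p+ zygotes.

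Imprinted genes were read in 2 classes. Of 52 genes imprinted through DNA methylation, 0 had a promoter peak in the Ezh2m+/p+ maternal list, 1 in the Ezh2m+/p+ paternal, 4 (7.69%) in the Ezh2m-/p+ maternal and 2 (3.85%) in the Ezh2m-/p+ paternal list. The Ezh2m-/p+ maternal genes were Dlk1 (31.4), Mirg (47.4), Grb10 (24.5) and Inpp5f (7.17). Dlk1 and Mirg lie in the same imprinted domain on chromosome 12. Of 23 genes known to be imprinted through maternal H3K27me3, the numbers were 0, 5 (21.7%), 3 (13%) and 4 (17.4%), against 6.27%, 3.60% and 8.43% of coding genes in the last 3 lists. This small class had a median of 5 starts per gene. Its 8 genes in any list became 5 with peaks over 2000 bp and 4 with peaks that cover the start or with lists of equal size. Epas1, a hypoxia-inducible factor, had paternal folds of 259 for Ezh2m+/p+ and 33.5 for Ezh2m-/p+ zygotes, Etv6 had 9.03 and 15.0, Gramd1b had 13.5 and 78.8, and Otx2 is given above. Prox1 (10.5) was in the Ezh2m+/p+ paternal list. Rbms1 (30.6), Jade1 (19.9) and Runx1 (5.35) were in the Ezh2m-/p+ maternal list.

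The remaining classes are given as counts in the order Ezh2m+/p+ maternal, Ezh2m+/p+ paternal, Ezh2m-/p+ maternal and Ezh2m-/p+ paternal. Solute carriers, which move small molecules across membranes, had promoter peaks at 13, 22, 18 and 31 of 394 genes. Transmembrane proteins named Tmem had them at 5, 15, 10 and 18 of 242 genes, and cadherins and protocadherins at 2, 7, 0 and 6 of 92. These classes differed little from coding genes as a whole, apart from the cadherins, which had no Ezh2m-/p+ maternal peak. Translation initiation factors had peaks at 1, 4, 1 and 5 of 56 genes, nuclear-encoded subunits of the respiratory chain at 1, 2, 1 and 4 of 52, and small nucleolar RNA genes at 0, 3, 0 and 4 of 132.

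**Figure D3:**
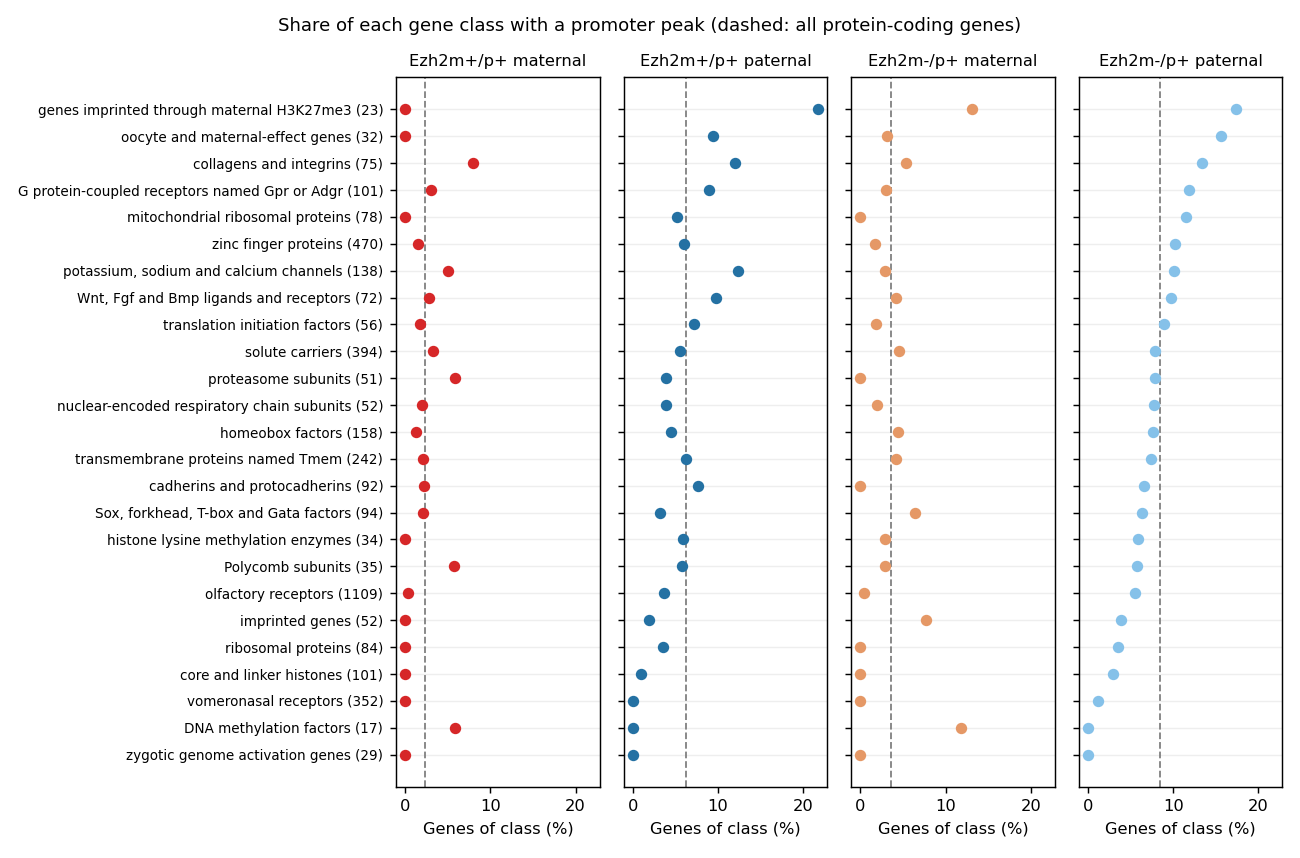
Points give the percent of the genes of each class with a promoter peak in each of the 4 lists, with the number of genes in the class in parentheses, and the dashed line gives the percent of all protein-coding genes. Classes are sorted by the Ezh2m-/p+ paternal value, and genes imprinted through maternal H3K27me3 have the highest paternal values (21.7% and 17.4%) and no Ezh2m+/p+ maternal peak.

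Genes without a protein were a minor share. Coding genes were 92.6% of the genes named in the Ezh2m+/p+ maternal list, 90.6% in the Ezh2m+/p+ paternal, 89.8% in the Ezh2m-/p+ maternal and 89.8% in the Ezh2m-/p+ paternal list, against 55.4% of all annotated genes. Of 4744 long non-coding RNA genes, 27 (0.569%), 81 (1.71%), 59 (1.24%) and 116 (2.45%) had a promoter peak in the same order, against 1.37%, 3.82%, 2.21% and 5.18% of all annotated genes. Of 1183 microRNA genes, 9 (0.761%) and 19 (1.61%) had a peak on the maternal genome and 41 (3.47%) and 59 (4.99%) on the paternal genome, of which 29 were in both paternal lists. All annotated genes numbered 38113. Of these, 22037 had an ID in the GENCODE table, and the rest were matched by gene name. Among the 7857 pseudogenes each paternal list named 1 and each maternal list 0. How many of these genes the peak annotation could name was not tested, so contrasts with all annotated genes may follow from the denominator. Mir680-1 had paternal folds of 289 for Ezh2m+/p+ and 6.19 for Ezh2m-/p+ zygotes, and Mir135a-1 had 60.2 and 142.

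The CpG content of the marked promoters depended on which start was read. CpG-rich windows were defined by a GC content of at least 50% and an observed to expected CpG ratio of at least 0.6, and made up 33.7% of the RefSeq windows. Of these 10993 windows, Ezh2m+/p+ maternal peaks overlapped 42 (0.382%, 0.283 to 0.516%), against 218 of 21626 CpG-poor windows (1.01%, 0.883 to 1.15%). The intervals did not overlap. In Ezh2m-/p+ zygotes maternal peaks overlapped 1.21% (1.02 to 1.43%) of CpG-rich and 1.35% (1.21 to 1.52%) of CpG-poor windows, in a list that also overlapped more windows in all. On the paternal genome the shares were 3.12% and 3.37% in Ezh2m+/p+ and 4.93% and 4.54% in Ezh2m-/p+ zygotes. No CpG-rich window was overlapped in both maternal lists, while 18 CpG-poor windows were. In both paternal lists 250 CpG-rich (2.27%) and 500 CpG-poor windows (2.31%) were overlapped.

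**Figure D4:**
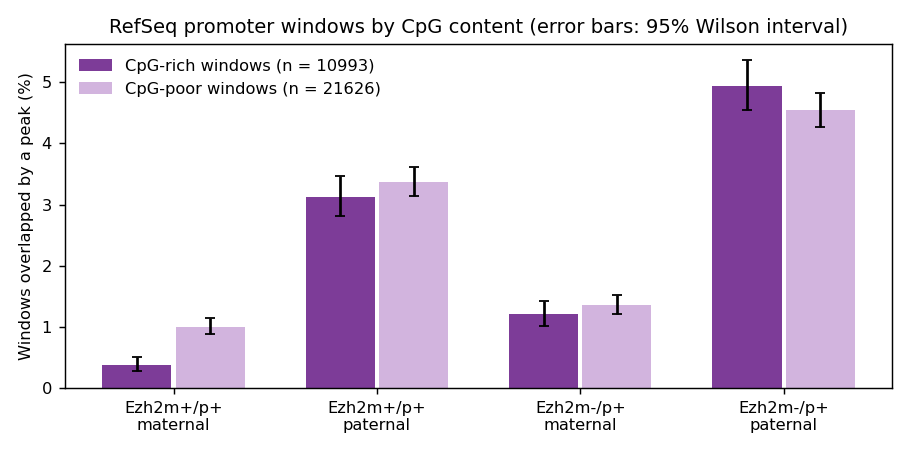
Bars give the percent of RefSeq promoter windows overlapped by a peak of each list, for CpG-rich and CpG-poor windows, with 95% Wilson intervals. The Ezh2m+/p+ maternal list shows 0.382% of CpG-rich against 1.01% of CpG-poor windows, and the other lists show nearer values.

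The windows were also read by gene. Of the RefSeq windows that belong to genes with a promoter peak, 46.3% were CpG-rich for the Ezh2m+/p+ maternal list, 45.3% for the Ezh2m+/p+ paternal, 51.5% for the Ezh2m-/p+ maternal and 45.2% for the Ezh2m-/p+ paternal list, against 33.7% of all windows. All windows belong to 26794 genes, more than the 21123 coding genes, and no share for coding genes alone was computed. With only the first start of each gene counted, the Ezh2m+/p+ maternal share was 33.2%, which is no longer above that of all windows. At the named start itself, however, the same 300 bases were CpG-rich for 14.4% (11.7 to 17.6%) of starts in the Ezh2m+/p+ maternal list and for 21.4 to 25.6% in the other lists, all below the 30.3% of all annotated starts. The choice to read the genome at the named starts was made after the data were seen. Peaks at first starts were CpG-rich in 30.0% (24.5 to 36.2%) of Ezh2m+/p+ maternal cases, against 41.3%, 42.3% and 42.3% in the Ezh2m+/p+ paternal, Ezh2m-/p+ maternal and Ezh2m-/p+ paternal lists and 38.8% of all first starts. At starts further inside the gene the share was 2.32% in the Ezh2m+/p+ maternal list and 3.51 to 7.06% in the others, against 11.6% of all such starts. The direction against the background thus depended on whether the windows of the gene or the named start were read.

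Paternal shares varied between chromosomes. Chromosomes 1, 4 and 14 had the highest shares of coding genes with a paternal promoter peak, at 12.6%, 13% and 13% in Ezh2m+/p+ and 14.9%, 14.7% and 14.4% in Ezh2m-/p+ zygotes, whereas chromosome 10 had 1.83% and 2.84%. Maternal shares were highest on chromosome 15 in Ezh2m+/p+ zygotes (4.21%) and on chromosome 12 in Ezh2m-/p+ zygotes (7.22%, against 2.20% in Ezh2m+/p+). Chromosome X was the lowest in every list, with 0.215% of 932 coding genes in the Ezh2m+/p+ maternal, 0.966% in the Ezh2m+/p+ paternal, 0.751% in the Ezh2m-/p+ maternal and 2.58% in the Ezh2m-/p+ paternal list. Among the pooled zygotes all carry a maternal X chromosome and only the females carry a paternal one. Whether this has a part in the X values was not tested.

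**Figure D5:**
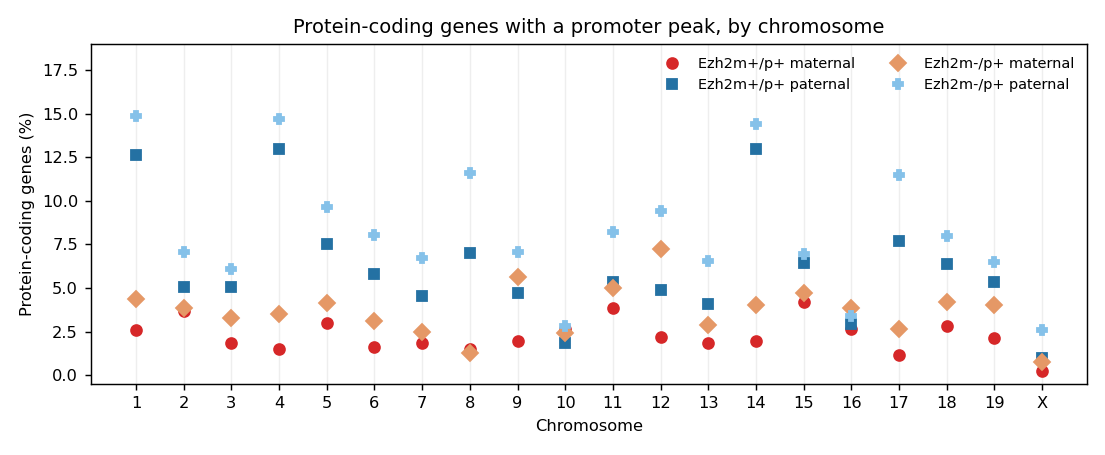
Points give the percent of protein-coding genes with a promoter peak on each chromosome for each of the 4 lists. The paternal points on chromosomes 1, 4 and 14 lie between 12.6% and 14.9%, and those on chromosome X at 0.966% and 2.58%.

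Within chromosomes the paternal genes lay in runs. In Ezh2m+/p+ zygotes 944 of the 1884 paternal promoter peaks fell in 74 windows of 1 Mb, out of 593 with any, and in Ezh2m-/p+ zygotes 1249 of 2494 fell in 107 of 756. On the maternal genome 124 of 392 and 157 of 572 windows were needed for as large a share. The densest Ezh2m+/p+ paternal window was 54 to 55 Mb of chromosome 14, with 40 promoter peaks at 29 genes, among them the cardiac myosin genes Myh6 and Myh7. It had peaks at 21 genes in the Ezh2m-/p+ paternal list and at 0 in both maternal lists. The window from 171 to 172 Mb of chromosome 1, which holds the Slamf family of lymphocyte receptors, had 25 genes in the Ezh2m+/p+ and 26 in the Ezh2m-/p+ paternal list. These windows were picked after their values were seen. Of the coding genes with a promoter peak, 47.6% in the Ezh2m+/p+ paternal and 50.8% in the Ezh2m-/p+ paternal list had a neighbouring coding gene with one, against 10.7% and 15.1% in the maternal lists. The longest run was 31 successive coding genes from Lhx4 to Serpinc1 (chr1:155698031-161002543) in the Ezh2m-/p+ paternal list, of which the first 26, from Lhx4 to Tnn, were also an unbroken run in the Ezh2m+/p+ paternal list. The longest maternal runs were 3 genes in Ezh2m+/p+ (Kcnma1, Dlg5 and E330034G19Rik) and 4 in Ezh2m-/p+ zygotes (Eml5, Ttc8, Foxn3 and Efcab11). Since 12.1% of Ezh2m+/p+ paternal and 13% of Ezh2m-/p+ paternal promoter peaks lay within 1 kb of starts of more than 1 gene, while the annotation names only 1, some neighbours are not counted.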

How the data were processed

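H3K27me2 and input libraries of Ezh2m+/p+ and Ezh2m-/p+ zygotes were sequenced in paired-end mode. Per the labels and the study's methods, the authors trimmed reads (Trimmomatic 0.38), mapped them to mm10 (Bowtie2), removed duplicates (Picard), split the reads by strain (SNPsplit) and called peaks over the input (SICER). The study's methods set limits of 1000 bp on length and 5 on fold. The shortest listed promoter peaks span 999 bp from start to end. ChIPseeker gave each peak 1 transcript. The deposited lists hold the ratio of H3K27me2 to input reads (the fold), the peak length and the distance to the start. Only reads over a strain variant can be assigned to a parent. A deposited coverage table was not used here.

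The members and gene classes were chosen with earlier results of these data known. Between 98.0% and 98.8% of the named transcripts had identical coordinates in GENCODE vM21 (GRCm38). The denominator of 21123 coding genes was taken from the annotation of chromosomes 1 to 19 and X. The 27 classes are symbol lists or symbol patterns, which can catch antisense genes. Overlap needed 1 bp, and shares have 95% Wilson intervals. Named by rule were the 5 peaks of largest fold, the longest peak and the 3 genes with most peaks in each list, the 5 recurrent genes of each genome and the 12 genes of 3 or 4 lists with the largest smaller fold, up to 4 genes per class, and the peaks next to the 1 kb limit. Genes outside the rule were chosen after their values were seen. Scripts ran in Python 3.11.15 (pandas 2.3.3, numpy 2.4.6, matplotlib 3.10.9, scipy 1.17.1), and the functions for overlap and intervals were tested on simulated data. The alternatives are described with their effects in the closing section.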

Additional observations from a re-analysis of the deposited data

Results flagged for a closer look

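For 3 measures of the promoter peaks, the Ezh2m-/p+ minus Ezh2m+/p+ difference had opposite signs on the maternal and the paternal genome. Each difference compares 1 library with 1 library and was not tested. The share of promoter peaks that covered the start differed by -3.15 percentage points on the maternal and 3.94 on the paternal genome. The median fold differed by 16.8 on the maternal and -10.7 on the paternal genome. The median length differed by -800 bp on the maternal and 400 bp on the paternal genome. The share of promoter peaks in the list, the number of genes and the share of coding genes had the same sign on both genomes. The opposite signs depended on the limits. They held for the median fold and start coverage on autosomes, for start coverage with a fold over 10 (66.3% and 61.4% maternal, 61.8% and 65.5% paternal, in Ezh2m+/p+ and Ezh2m-/p+ zygotes) and for the median fold with peaks over 2000 bp (6.70 and 23.7, 15.0 and 12.4). With a fold over 10 the median fold was lower in Ezh2m-/p+ zygotes on both genomes (40.2 and 26.8 maternal, 36.1 and 21.3 paternal), and with lists of equal size it was higher on both (6.87 and 29.1, 84.3 and 110). Start coverage was lower on both with lists of equal size (67.2% and 63.5%, 57.1% and 54.4%) and higher on both with peaks over 2000 bp (68.8% and 69.1%, 75.2% and 77.0%). The median length was not recomputed under the alternatives.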

How the results depend on the processing

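Recurrence of genes is given here as a share of the Ezh2m+/p+ list between genotypes and as a share of the maternal list between parental genomes. Values for 4 lists stand in the order Ezh2m+/p+ maternal, Ezh2m+/p+ paternal, Ezh2m-/p+ maternal and Ezh2m-/p+ paternal. No paired analysis was possible because each genotype had 1 library and no test was made. With a fold over 10, the share of promoter peaks was 7.92%, 9.56%, 8.84% and 10.2%, and the median fold 40.2, 36.1, 26.8 and 21.3. The genes numbered 181 in the Ezh2m+/p+ maternal and 1319 in the Ezh2m-/p+ paternal list, and the coding share of the first was 95%. Recurrence between genotypes was 9.39% maternal and 50.9% paternal, peak overlap 3.80% and 50.3%, and recurrence between parental genomes in Ezh2m-/p+ zygotes 4.49%. With peaks over 2000 bp, promoter shares were 14.3%, 10.1% and 13.2% in the last 3 lists, genes numbered 728, 491 and 1146, and starts were covered by 75.2%, 69.1% and 77.0%. The median fold was 15.0 in the Ezh2m+/p+ paternal and 12.4 in the Ezh2m-/p+ paternal list, where the CpG-rich share was 42.7%. Paternal recurrence was 72.8%, paternal overlap 79.5%, and recurrence between parental genomes 0.995% for Ezh2m+/p+ and 2.65% for Ezh2m-/p+ zygotes. With every list held to its 5744 peaks of largest fold, promoter shares were 8.76% in the Ezh2m+/p+ paternal and 7.49% in the Ezh2m-/p+ paternal list, with 57.1% and 54.4% of starts covered. Genes numbered 465, 481 and 412 and the median fold was 84.3, 29.1 and 110 in the last 3 lists. Recurrence between genotypes was 8.02% maternal and 17.6% paternal, overlap 4.10% and 12.9%, and recurrence between parental genomes 1.53% and 1.46%. With peaks that cover the start, promoter shares were 6.27%, 6.57%, 6.04% and 7.23%, the Ezh2m-/p+ maternal list had 558 genes, maternal recurrence was 10.7%, and Ezh2m-/p+ recurrence between parental genomes 1.97%. The following 2 alternatives were chosen after seeing the data. With the first start of each gene only, promoter shares were 4.06%, 5.32%, 4.33% and 5.71%, genes numbered 232, 922, 413 and 1267, and CpG-rich shares were 33.2% in the Ezh2m+/p+ maternal list, no longer above the 33.7% of all windows, and 47.6% in the Ezh2m-/p+ maternal list. Recurrence was then 6.90% maternal and 66.5% paternal, and 0% and 2.18% between parental genomes. With the window at the named start, CpG-rich shares were 14.4%, 23.9%, 21.4% and 25.6%. A reciprocal overlap of 50% left 3.54% of maternal and 38.5% of paternal peaks overlapping, and counting every gene within 1 kb gave a paternal recurrence of 72.9%. Autosomes only and coding genes only moved none of the results recomputed. Paternal recurrence stayed above maternal recurrence under each alternative computed for both. Of 150 genes named by rule, 141 kept a promoter peak with a fold over 10, 114 with peaks over 2000 bp and 107 with lists of equal size. The lists carry no read counts, so the depth behind the smaller maternal lists is unknown, and a gene without a listed peak may lie below the limits on fold and length. The causes of these shifts were not tested.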
